A study of Sus scrofa with 6 samples.

Results

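The contractile and actin cytoskeleton genes were described in mesenchymal stem cells grown from marrow of the pig mandible and of the pig tibia. The list names 49 genes: actins and the proteins that turn them over, smooth muscle and nonmuscle myosin subunits, tropomyosins, crosslinkers, focal adhesion proteins and their regulators. A gene counted as measured where a probe set carried its symbol as the only one in the platform annotation, and where several did, the brightest of them on average was used. This gave 32 measured genes of 49, out of 12217 genes with such a symbol. The genes were picked by known function, with earlier results of these data known. The 17 genes not analysed here include ACTG1, CNN2, MYL12A, MYH11, LMOD1, DES, VIM, FLNA, PDLIM5, PDLIM7, CSRP1, MYOCD, PALLD, LPP and TGFB1I1. Of these, PDLIM5 stands more than once in the annotation of its probe set and was left out by the same rule. The late smooth muscle markers MYH11, DES and LMOD1 and the cofactor MYOCD are thus not described.

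The study used female American Yorkshire pigs aged 4 months and compared 3 mandibular with 3 tibial cultures at passage 0, grown to 80% confluence. Mandibular marrow was drawn at the symphysis, the midline of the jaw, and marrow of both sites was aspirated from 3 pigs according to the design text. All cultures were started by plating unsorted marrow on plastic in the same serum-containing medium, so other adherent cells may have been carried along. The labels do not say which samples share a pig, so p-values measure the spread between these samples, which may share animals.

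Actin filaments are built from monomers that profilin supplies and cofilin removes, and myosin pulls on them once its regulatory light chain is phosphorylated. The same machinery exists in all cells, while a smaller group of proteins, among them smooth muscle actins, calponin and transgelin, is abundant in smooth muscle and in contractile stromal cells such as myofibroblasts. Many of these genes are switched on by serum response factor together with its cofactor MKL1, which actin monomers hold in the cytoplasm. Marrow stromal cells spread on plastic are known to express many of them. The roles given here are known mainly from human and mouse.

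The values are log2 levels from RMA, so a difference of 1 is a 2-fold change, and they are relative within the series. Array medians lay between 5.63 and 5.71. Levels of different genes are not compared, because each probe set has its own response. The mean of 12 measured genes of a stromal list was 10.52 to 10.68 in mandibular cultures and 10.63 to 10.66 in tibial cultures. Some genes of the list varied more between arrays: NT5E from 7.05 to 9.13, CD44 from 6.44 to 8.19 and DCN from 9.99 to 11.98. The niche factor gene CXCL12, also on that list, measured 4.14 to 4.39 in mandibular and 4.26 to 5.06 in tibial cultures.

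The positional genes of 2 arrays went against the labelled site. ALX1, a homeobox gene of craniofacial mesenchyme, measured 8.08, 3.86 and 7.44 on mandibular arrays 1, 2 and 3, against 3.90, 3.54 and 7.97 on tibial arrays 1, 2 and 3. HOXA7, a gene of trunk and limb identity, measured 5.26, 8.40 and 5.23 in that order for the mandible, against 8.01, 7.92 and 5.89 for the tibia. The arrays mandibular 2 and tibial 3 thus had the levels of the other site's arrays. The labels were kept, and the site differences of several genes that rest on these arrays are given with and without them.

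No contractile or actin cytoskeleton gene passed the test between labelled sites. With limma, 0 of 32 genes had an adjusted p under 0.05, beside 0% of all probe sets, and the adjusted p was 0.9995 for each. At an unadjusted p under 0.05 there was 1 of 32, SMTN, beside 3.03% of all probe sets. The mandibular mean was the higher one for 19 genes and the lower one for 13, beside 51% and 49% of all probe sets. The median difference, mandibular minus tibial, was 0.03, against 0.00 over all probe sets, and single differences ran from -0.42 to 0.43. The median half-width of the unadjusted 95% intervals was 0.35 with 3 arrays a site. For a gene with that half-width, a smaller change would not reach an unadjusted p under 0.05. Some genes had narrower intervals, such as SMTN from 0.10 to 0.60, and others had wider ones. Adjustment over all probe sets raises that limit, and neither SMTN at 0.35 nor ACTN4 at 0.43 passed. The plot of differences shows these intervals.

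**Figure D1:**
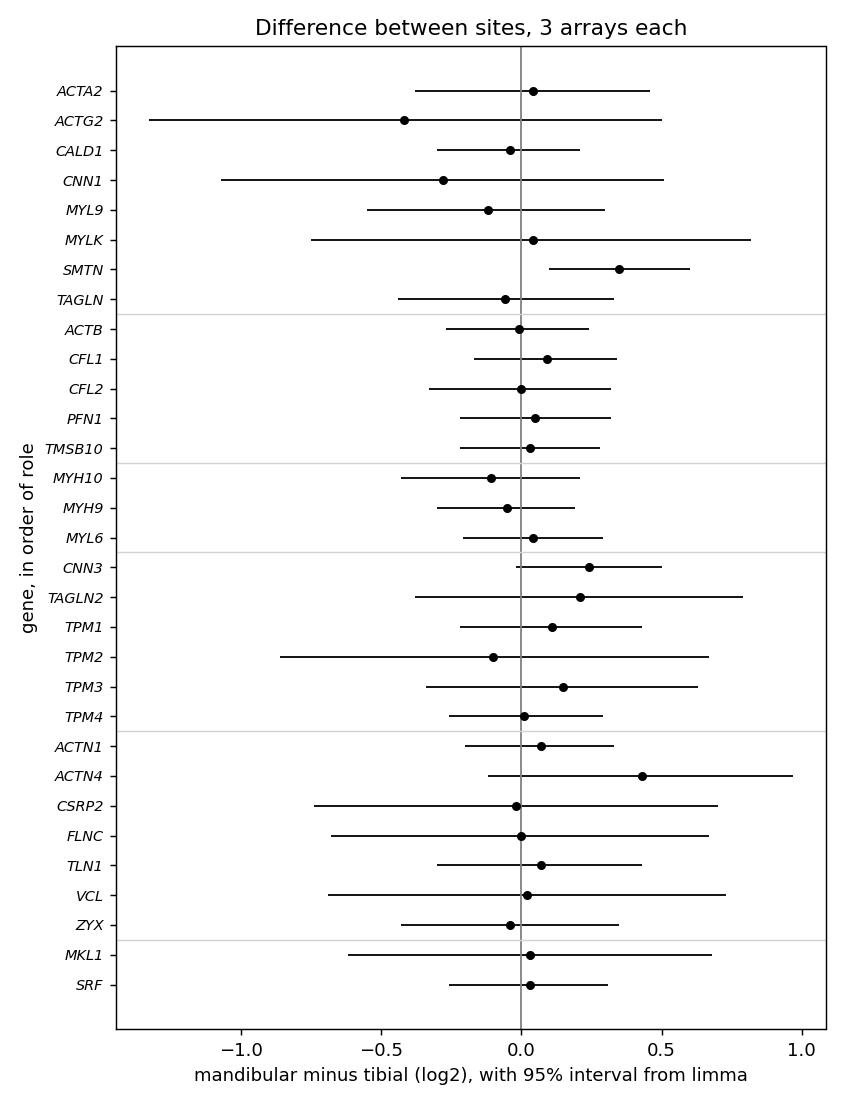
Difference of 31 of the 32 measured genes, mandibular minus tibial, on the log2 scale (x axis), with points for the limma estimate and bars for its unadjusted 95% interval (3 arrays a site); genes run down in order of role, separated by grey lines. SMTN at 0.35 is the gene whose interval does not reach 0, and ACTG2 has the widest interval, from -1.33 to 0.50.

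Levels varied between arrays within each site. A range of at least 1 over the arrays was seen in 5 of 32 genes (ACTG2, MYLK, ACTN4, CSRP2 and TPM2), beside 16.1% of all probe sets. Of the 32 genes, 18 had their highest level on mandibular 2, beside 12.8% of all probe sets, and 0 had it on mandibular 1, beside 18.1%. The lowest level was on mandibular 1 for 11 genes, beside 13% of all probe sets, on tibial 3 for 8, beside 13.1%, and on tibial 2 for 6, beside 18.6%. In 11 genes (34.4%) the 3 highest levels were those of mandibular 2 and of tibial 1 and 2, beside 8.1% of all probe sets, a count made after the values were seen. These genes were ACTA2, ACTG2, ACTB, TAGLN, CNN1, MYL9, TPM2, CALD1, VCL, MKL1 and CFL2. The gap below the 3 highest levels was at least 0.35 in CNN1, ACTG2, TPM2 and MYL9. It was 0.10 to 0.17 in TAGLN, VCL and MKL1, and at most 0.04 in ACTA2, ACTB, CALD1 and CFL2. Mandibular 2, tibial 1 and tibial 2 are also the arrays with high HOXA7 and low ALX1. With each array centred on its median, or with the arrays quantile-normalised again, the count was 9. These arrays also had the highest mean of the macrophage markers, as given below.

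**Figure D2:**
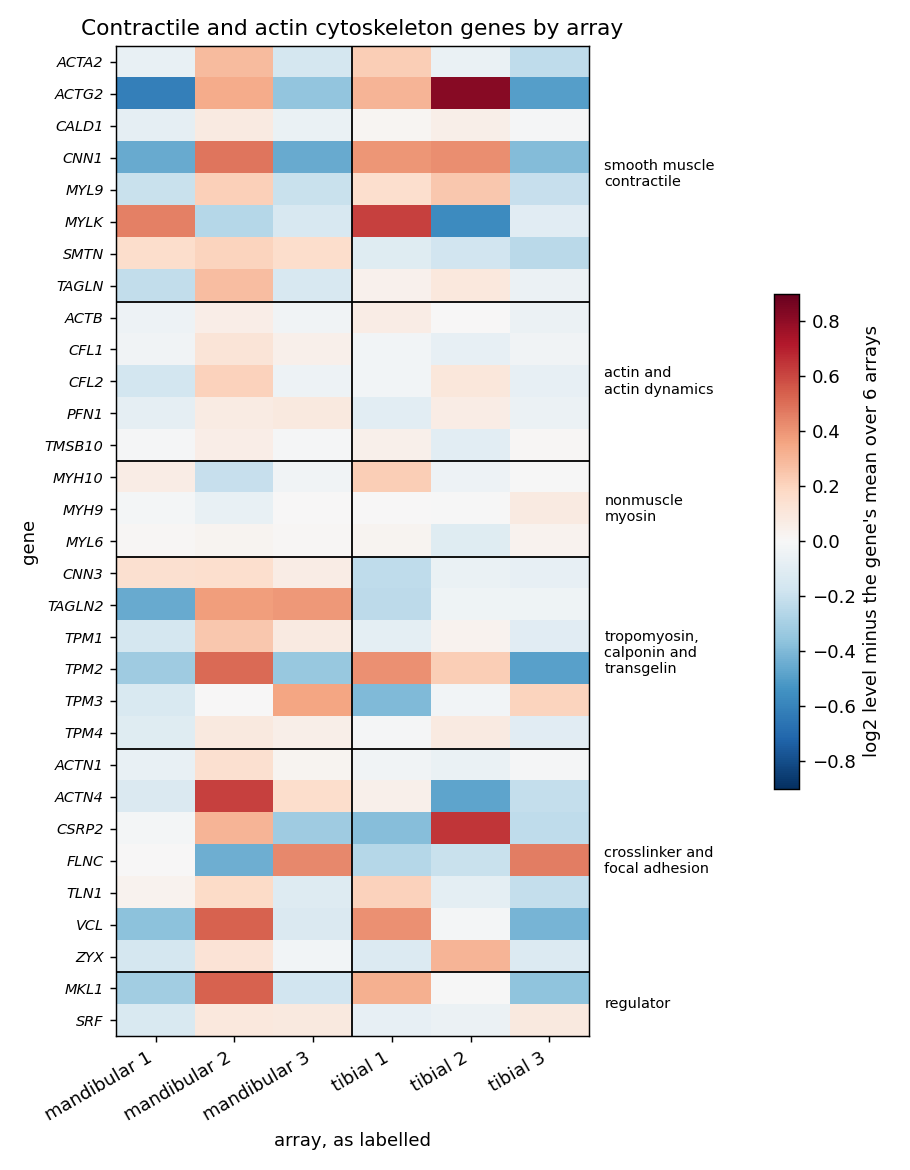
Log2 level of 31 of the 32 measured genes, each minus its own mean over the 6 arrays (colour scale; red above and blue below the mean), with mandibular arrays left of the vertical line and tibial arrays right of it, and genes in rows by role. CNN1, TPM2, ACTG2 and MYL9 are red on mandibular 2 and on tibial 1 and 2, and SMTN is red on mandibular arrays 1 to 3 alone.

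Among the smooth muscle contractile genes, 8 of 11 were measured, with 3 mandibular means above and 5 below the tibial means and a median difference of -0.05. CNN1 encodes calponin, an actin-binding protein that restrains myosin ATPase activity. It measured 10.16, 11.09 and 10.16 on mandibular arrays 1, 2 and 3, against 11.01, 11.03 and 10.22 on tibial arrays 1, 2 and 3. The levels fell into a high and a low set of 3 arrays, with a gap of 0.80 and no value between, and each set held arrays of both sites. Mandibular cultures averaged 10.47 ± 0.54 and tibial cultures 10.75 ± 0.46 (SD, n = 3 each), which is a difference of -0.28 (SE 0.33), or 1.21-fold higher in tibial cultures. The highest and the lowest array differed 1.91-fold. Without mandibular 2 the site difference was -0.59, without tibial 3 it was -0.55 and without both it was -0.86, while omissions of each other array gave -0.15 to -0.12.

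ACTG2, the gamma actin of visceral smooth muscle, varied most of all 32 genes, 2.70-fold over the arrays. Its levels were 11.65, 12.60 and 11.91 in mandibular cultures, against 12.57, 13.08 and 11.77 in tibial cultures. The order was again split within each site, with mandibular 2, tibial 1 and tibial 2 at 12.57 or above and the others at 11.91 or below. The difference between sites was -0.42 (SE 0.38), with a 95% interval from -1.33 to 0.50. It was -0.69 without mandibular 2, -0.77 without tibial 3 and -1.05 without both, and -0.22 and -0.11 without mandibular 1 and tibial 2.

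MYL9, the regulatory light chain that is phosphorylated in contraction, followed the same arrangement on a smaller scale. It measured 11.96, 12.37 and 11.96 in mandibular cultures, against 12.31, 12.40 and 11.95 in tibial cultures. The lower set differed from the upper by a gap of 0.35, and the difference between sites was -0.12 (SE 0.18). It was -0.39 without mandibular 2 and tibial 3, and single omissions gave -0.26 (without either of these) to -0.04 (without tibial 2).

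ACTA2, the alpha actin of vascular smooth muscle that is also used to mark myofibroblasts, measured 12.86, 13.21 and 12.77 in mandibular cultures, against 13.15, 12.87 and 12.70 in tibial cultures. Here only mandibular 2 and tibial 1 stood above the rest. Its difference was 0.04 (SE 0.18), and it was -0.09 without mandibular 2 and -0.06 without tibial 3. TAGLN, an early smooth muscle marker that binds actin, measured 12.72, 13.22 and 12.80 in mandibular cultures, against 12.98, 13.04 and 12.89 in tibial cultures. Without mandibular 2 its mandibular levels lay below every tibial level, and with that array the difference was -0.06 (SE 0.16). Caldesmon, encoded by CALD1, which binds actin and tropomyosin, had a range of 0.16 over all arrays.

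MYLK, the kinase that phosphorylates the regulatory light chain, had a different order. It measured 7.53, 6.82 and 6.93 in mandibular cultures, against 7.69, 6.51 and 6.97 in tibial cultures, so mandibular 1 and tibial 1 were high and tibial 2 low. A dimmer probe set of the same symbol measured 6.26, 5.82 and 6.22, against 5.85, 5.71 and 6.19. The probe sets disagreed on tibial 1, which was the highest array on the brighter probe set and below both mandibular 1 and mandibular 3 on the dimmer.

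SMTN encodes smoothelin, a protein of contractile smooth muscle fibres, and was the gene of this family with the smallest p. It measured 8.35, 8.39 and 8.35 in mandibular cultures, against 8.08, 8.02 and 7.95 in tibial cultures. Every mandibular level was above every tibial level, with a gap of 0.27, and the arrays whose positional genes went against their labels sat with their labelled site. Mandibular cultures averaged 8.37 ± 0.02 and tibial cultures 8.02 ± 0.07 (SD, n = 3 each), which is a difference of 0.35 (SE 0.10), or 1.27-fold. The adjusted p was 0.9995 in limma, and the two-sided exact permutation test gave p = 0.1, the smallest that 3 against 3 arrays allow. In single omissions the difference ranged from 0.31 to 0.38. SMTN and CNN3 were the genes without overlap between sites, 2 of 32 (6.25%) beside 6.92% of all probe sets, so the count itself is at the background. Both had the higher levels in mandibular cultures, which 3.35% of all probe sets had without overlap, and 0 of 32 had the higher levels in tibial cultures, beside 3.57%.

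**Figure D3:**
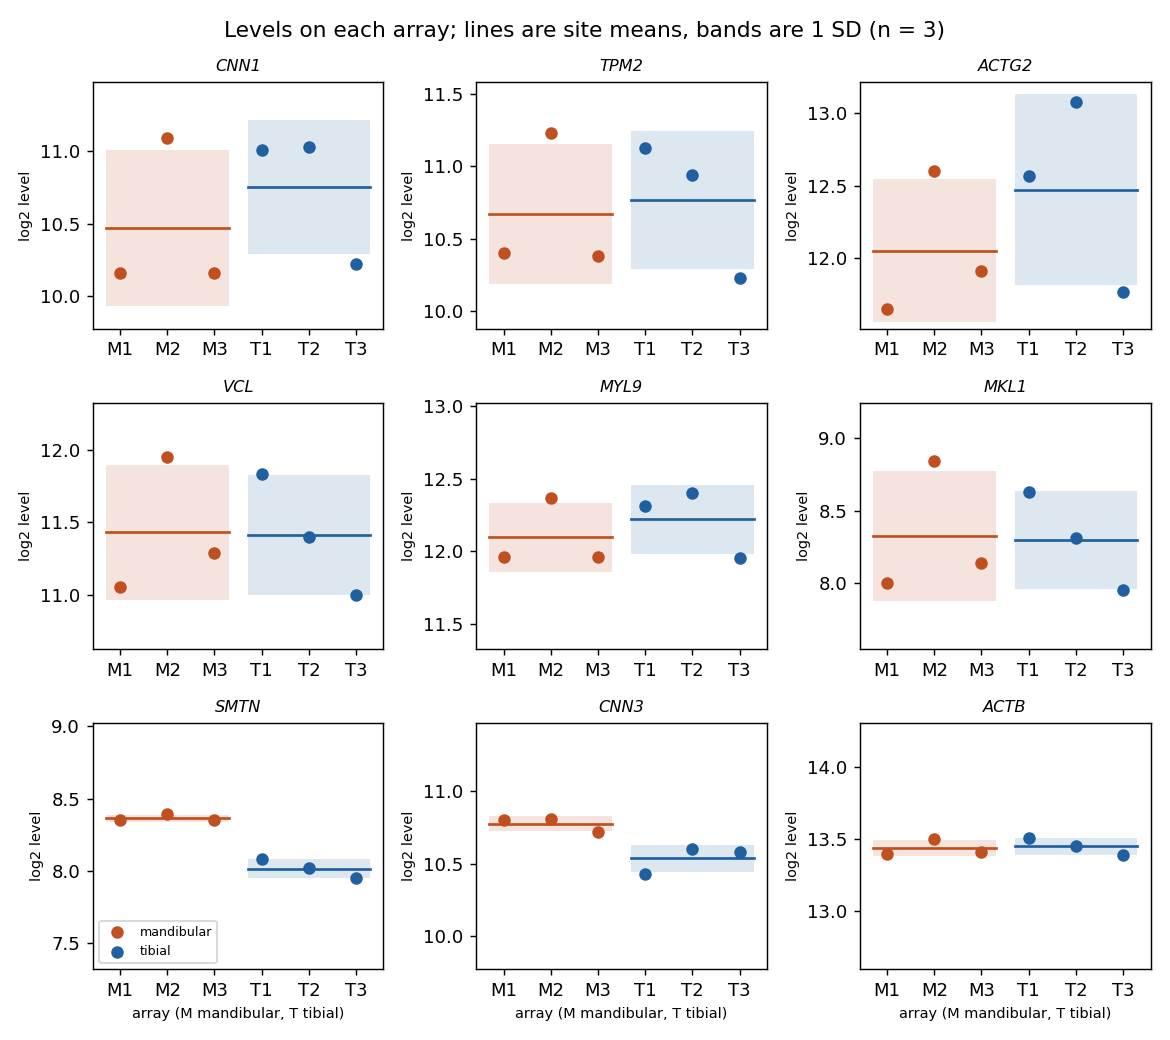
Log2 levels of 9 genes on each array (points), with the mean of each site as a line and 1 SD as a band (3 arrays a site); each panel spans the same height on its log2 axis. In CNN1, TPM2, ACTG2 and MYL9 the points of mandibular 2 and of tibial 1 and 2 are high, in SMTN and CNN3 the sites do not overlap, and ACTB is almost level with a range of 0.12.

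The tropomyosins, which lie along the actin filament and set which partners bind it, differed among themselves. All 4 were measured. TPM2, the beta tropomyosin, measured 10.40, 11.23 and 10.38 in mandibular cultures, against 11.13, 10.94 and 10.23 in tibial cultures. The gap between its upper and lower sets of arrays was 0.54, the sets were those of CNN1, and its site difference was -0.10 (SE 0.32), or -0.65 without mandibular 2 and tibial 3. TPM1 measured 12.79, 13.19 and 13.03, against 12.86, 12.98 and 12.85, with overlapping sites and a difference of 0.11 (SE 0.14) that was 0.01 without mandibular 2 and 0.21 without mandibular 1.

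TPM3, which makes both muscle and nonmuscle forms, measured 8.83, 8.97 and 9.32 in mandibular cultures, against 8.57, 8.94 and 9.17 in tibial cultures. Its highest arrays were mandibular 3 and tibial 3 and its lowest was tibial 1, an order unlike that of TPM2. The difference was 0.15 (SE 0.20), 0.29 without tibial 3 and -0.02 without tibial 1, and TPM4 had a range of 0.20. TAGLN2, the broadly expressed relative of TAGLN, measured 10.65, 11.48 and 11.50 in mandibular cultures, against 10.87, 11.07 and 11.07 in tibial cultures. Mandibular 1 was below and mandibular 2 and 3 were above every tibial level, and the difference of 0.21 (SE 0.24) was 0.49 without mandibular 1 and 0.07 without mandibular 2.

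CNN3, the acidic calponin found in many nonmuscle cells, had levels of 10.80, 10.81 and 10.72 in mandibular cultures, against 10.43, 10.60 and 10.58 in tibial cultures. The sites did not overlap, in contrast with CNN1, but the gap was 0.12. Mandibular cultures averaged 10.78 ± 0.05 and tibial cultures 10.54 ± 0.09 (SD, n = 3 each), which is a difference of 0.24 (SE 0.11), or 1.18-fold, and the exact permutation test again gave p = 0.1. Single omissions gave 0.19 to 0.27.

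The cytoplasmic actin and the proteins of actin turnover varied little. The median range over the arrays was 0.18 for the 5 measured genes of this role, against 0.44 over the 32 genes and 0.53 over all probe sets. Among the 5187 probe sets with a mean level of at least 8, the median range was 0.45. ACTB, the beta actin often used as a loading control, measured 13.40, 13.50 and 13.41 in mandibular cultures, against 13.51, 13.45 and 13.39 in tibial cultures. This was the narrowest range of the 32 genes, 0.12, and the site difference of -0.01 (SE 0.11) turned to 0.01 with each array centred on its median. The levels near the top of the array scale may be compressed, which was not tested.

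The cofilin gene CFL1, whose product severs filaments, ranged over 0.19, and the muscle-type cofilin gene CFL2 over 0.38. The ranges of the profilin gene PFN1, which loads monomers, and of the thymosin gene TMSB10, which holds monomers back, were 0.18 and 0.16. Of the 5 genes, 3 had higher and 2 lower mandibular means, and the median difference was 0.03.

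Of the nonmuscle myosin genes, MYL6 and MYH9 were as even, while MYH10 ranged over 0.42. The median range of the 3 measured genes was 0.15. MYH9, the heavy chain of nonmuscle myosin IIA, averaged 8.44 ± 0.04 in mandibular and 8.49 ± 0.05 in tibial cultures (SD, n = 3 each). The essential light chain gene MYL6 averaged 12.52 ± 0.01 in mandibular and 12.48 ± 0.08 in tibial cultures (SD, n = 3 each). MYH10, the heavy chain of nonmuscle myosin IIB, measured 10.10, 9.83 and 10.00 in mandibular cultures, against 10.26, 9.99 and 10.03 in tibial cultures. Mandibular 2, the array on which most of the 32 genes were highest, was the lowest array for both heavy chain genes. The difference for MYH10 was -0.11 (SE 0.13), and it was -0.03 without tibial 1, -0.04 without mandibular 2 and -0.17 without mandibular 1.

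Of the crosslinkers and focal adhesion proteins, 7 of 14 were measured, and their median range of 0.90 was the widest of any role. ACTN4, a nonmuscle alpha-actinin that bundles filaments, had the largest positive difference between sites of the 32 genes. It measured 10.81, 11.56 and 11.10 in mandibular cultures, against 10.99, 10.47 and 10.73 in tibial cultures. Mandibular 1 lay below tibial 1, so the sites overlapped. Mandibular cultures averaged 11.16 ± 0.38 and tibial cultures 10.73 ± 0.26 (SD, n = 3 each), which is a difference of 0.43 (SE 0.23), or 1.34-fold. It was 0.23 without mandibular 2 and 0.60 without mandibular 1. ACTN1, the other nonmuscle alpha-actinin, ranged over 0.21.

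VCL encodes vinculin, which couples talin to actin at adhesions under load. It measured 11.05, 11.95 and 11.29 in mandibular cultures, against 11.83, 11.40 and 11.00 in tibial cultures. Mandibular 2 and tibial 1 were the high arrays, 1.93-fold separated the extremes, and the averages were 11.43 ± 0.46 in mandibular and 11.41 ± 0.42 in tibial cultures (SD, n = 3 each). Its partner gene TLN1, which links integrins to actin, was also highest on tibial 1 and mandibular 2 but ranged over 0.43. In RefSeq's table of the pig assembly Sscrofa11.1, TLN1 and TPM2 are direct neighbours, with 0 protein-coding genes between them, while TPM2 ranged over 1.01. The zyxin gene ZYX, whose product gathers at stretched adhesions, ranged over 0.47 and was highest on tibial 2.

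FLNC, the filamin gene of striated muscle, ran the other way across the arrays. It measured 8.92, 8.48 and 9.35 in mandibular cultures, against 8.66, 8.72 and 9.38 in tibial cultures. The 3 arrays that were high for CNN1 were the lowest here, and the site means were 8.92 in both. CSRP2, a LIM-domain protein of smooth muscle cells, measured 9.77, 10.09 and 9.47, against 9.40, 10.43 and 9.56. Tibial 2 and mandibular 2 were high and tibial 1 was lowest, a 2.03-fold range within the tibial cultures alone.

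Of the regulators, 3 of 6 were measured, and MKL1 and SRF are described. MKL1, the actin-sensing cofactor of serum response factor, measured 8.0, 8.84 and 8.14 in mandibular cultures, against 8.63, 8.31 and 7.95 in tibial cultures. Its highest arrays were mandibular 2 and tibial 1, and then tibial 2, and the extremes differed 1.85-fold. The site difference of 0.03 (SE 0.27) was -0.23 without mandibular 2 and -0.14 without tibial 3. SRF itself measured 8.59, 8.82 and 8.81, against 8.65, 8.67 and 8.81. Its order was unlike that of MKL1, since mandibular 3 and tibial 3 were among its high arrays, and its difference was 0.03 (SE 0.12).

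By role, the level of each gene relative to its own mean showed which arrays stood apart. The median of the 8 smooth muscle genes was -0.14, 0.24 and -0.15 on mandibular arrays 1, 2 and 3, against 0.19, 0.07 and -0.22 on tibial arrays 1, 2 and 3. For the 7 crosslinker and adhesion genes it was -0.07, 0.18 and -0.03, against -0.03, -0.06 and -0.22. For the 3 nonmuscle myosin genes it was 0.02, -0.07 and 0.00, against 0.02, -0.05 and 0.03. Tibial 3 was thus the lowest array for the smooth muscle and adhesion roles, and mandibular 2 the highest for every role but nonmuscle myosin. Over all probe sets these medians stayed between -0.02 and 0.02.

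Mean levels of macrophage and monocyte markers were highest on the arrays that were high for CNN1, with mandibular 2 well below tibial 1 and 2. The mean of 16 measured macrophage and monocyte markers of 20 was 4.84, 6.21 and 4.84 in mandibular cultures, against 8.58, 8.01 and 5.37 in tibial cultures. In 13 of these 16 genes mandibular 2, tibial 1 and tibial 2 were the highest, beside 8.1% of all probe sets. In CD14, ITGAM and MARCO mandibular 2 measured 7.29, 5.23 and 4.94, below tibial 3 at 7.38, 5.35 and 4.99. For 10 measured cell cycle genes of 21 the mean was 7.41, 7.48 and 8.33, against 5.86, 6.48 and 7.96, so tibial 1 and 2 were the lowest and mandibular 2 was between mandibular 1 and 3. The general leukocyte marker PTPRC measured 3.42, 4.86 and 3.71, against 7.66, 6.96 and 3.91, and the deposited values hold no zeros. The part of these cells in the contractile gene levels was not tested, and fewer cells of a type cannot be told apart from less RNA per cell.

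Mural cells, the smooth muscle cells and pericytes of vessels, also express the contractile genes. The mean of 10 measured mural markers of 11 was 6.29, 6.71 and 6.34 in mandibular cultures, against 6.95, 6.60 and 6.12 in tibial cultures, and 2 of the 10, ABCC9 and NDUFA4L2, had mandibular 2, tibial 1 and tibial 2 as their highest arrays. CD248 was highest on tibial 3, and CSPG4 and HIGD1B were highest on mandibular 3. The pericyte marker RGS5 measured 2.82, 2.61 and 2.61, against 2.77, 2.42 and 2.60. The vessel adhesion molecule MCAM measured 6.59, 8.55 and 6.68, against 7.71, 6.28 and 6.33. It was highest on mandibular 2 and tibial 1, as were ACTA2, VCL and MKL1, and low on tibial 2. By smallest p, the mural markers with the lead were KCNJ8 at -0.48 (SE 0.26), CD248 at -0.39 (SE 0.31) and ABCC9 at -0.79 (SE 0.68). Of the 10 markers, 0 passed in either direction, beside 0% of all probe sets. The 7 measured skeletal muscle genes of 15 likewise had 0 calls. The myogenic factor genes MYOD1 and MYOG measured at most 5.09 and 5.71.

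**Figure D4:**
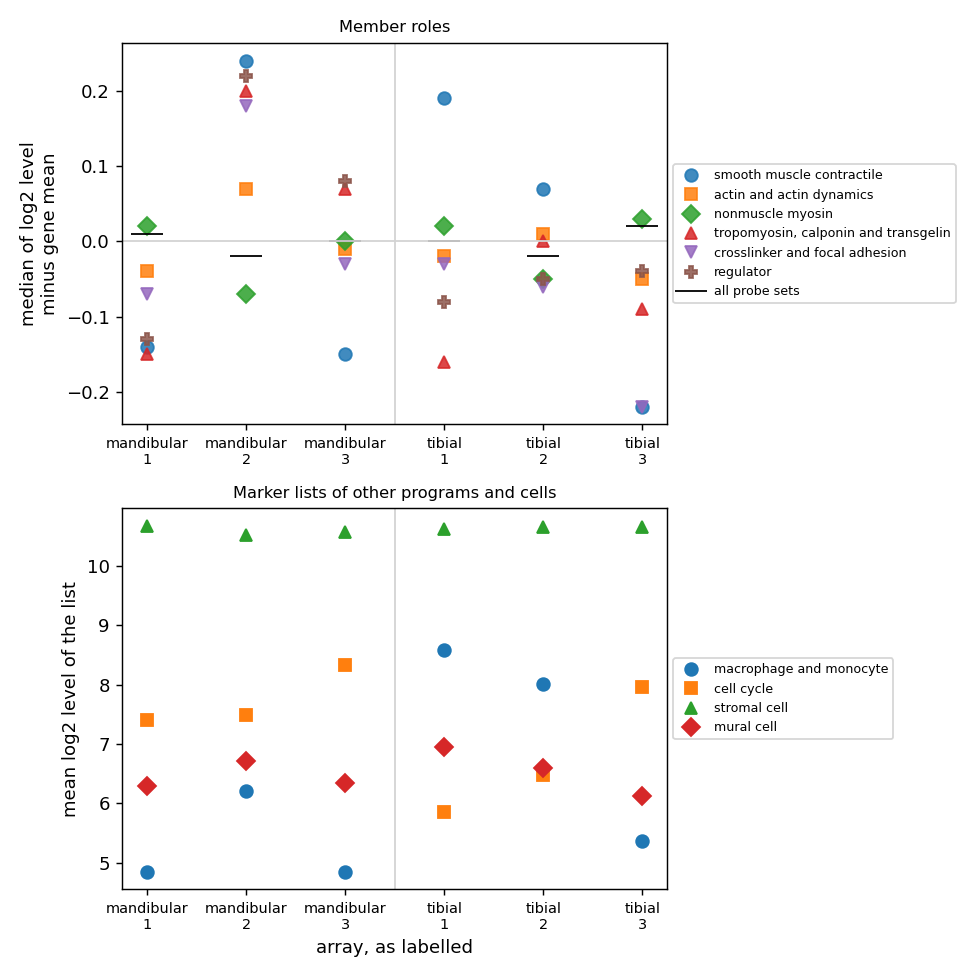
Top, for each array (x axis), the median over the genes of each role of the log2 level minus the gene's mean over 6 arrays, with black bars for all probe sets. Bottom, the mean log2 level of 4 marker lists; mandibular arrays stand left of the grey line. Smooth muscle genes are highest on mandibular 2 (0.24) and tibial 1 (0.19), and the macrophage list on tibial 1 and 2 (8.58 and 8.01).

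Further genes of the pathway had 0 calls, as did all probe sets in this fit, so that count is not particular to them. Of 16 measured genes for filament nucleation, elongation and capping (of 17), 12 had higher and 4 lower mandibular means. The shares over all probe sets were 51% and 49%, and the median difference of the 16 genes was 0.05. FMNL2, a formin, differed by 0.35 (SE 0.18) and was the 1 gene of 16 without overlap, beside 6.92% of all probe sets. The formin gene DIAPH1 differed by 0.21 (SE 0.20) and DIAPH3, another formin gene, by 1.18 (SE 0.78). DIAPH3 measured 7.47, 7.42 and 8.53 in mandibular cultures, against 5.08, 6.47 and 8.31 in tibial cultures, the order of the cell cycle list apart from mandibular 1 and 2.

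Of 9 measured adhesion partners (of 19), 3 were higher and 6 lower, beside 51% and 49% of all probe sets. Passing genes numbered 0, beside 0% of all probe sets. By smallest p the leading genes were PDLIM2 at -0.32 (SE 0.19), SORBS3 at -0.18 (SE 0.12) and FHL2 at 0.40 (SE 0.29).

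Of 9 measured targets of serum response factor or of the YAP coactivator outside the 32 genes (of 11), 7 were higher and 2 lower. Over all probe sets these shares were 51% and 49%. The median difference of the 9 genes was 0.11, and 0 passed, beside 0% of all probe sets. FHL2 is on this list and on that of the adhesion partners, so it counts in both. CTGF, a matricellular growth factor gene, measured 12.25, 12.64 and 12.44 in mandibular cultures, against 12.14, 11.34 and 12.40 in tibial cultures, a difference of 0.48 (SE 0.28). It was lowest on tibial 2, where ACTG2 was highest. Its relative CYR61 differed by 0.16 (SE 0.11), without overlap between sites but with a gap of 0.01. CYR61 was the 1 target of 9 without overlap, beside 6.92% of all probe sets.

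Leaving out the 2 arrays whose positional genes went against their labels, a choice made after the data were seen, did not bring any of the 32 genes past the threshold, while 195 of all probe sets (0.708%) then passed. Among the 4 arrays left, 15 of 32 genes had no overlap between sites, beside 37.3% of all probe sets. Tibial levels were the higher for 11 of these, which are the 11 genes named above for their arrangement, and that follows from how they were picked. Mandibular levels were the higher for CNN3, SMTN, FLNC and a gene not reported here. The median difference of the 8 smooth muscle genes was -0.22 in this fit and -0.05 with all arrays, and MKL1 differed by -0.40.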

How the data were processed

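Total RNA of 6 cultures, 3 a site, was measured on Affymetrix porcine arrays. The authors deposited log2 levels for 27558 probe sets, and per the submitters' processing notes the tools were Affymetrix Expression Console, Transcriptome Analysis Console 3.0 and RMA. RMA equalises the arrays' distributions, so a shift shared by all genes would be removed. Settings and genome build are not stated here, detection calls were not used, and the number of arrays limits precision. GEO's platform annotation left 13878 probe sets unnamed and named 523 with several symbols and 13157 with 1. Identical values on both MYL6 and both MYL9 probe sets were counted once. Near-identical actin and tropomyosin genes may share probe signal, which was not tested.

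Differences, mandibular minus tibial, were fitted in R 4.3.3 with limma 3.58.1 (lmFit, eBayes; two-sided; Benjamini-Hochberg over all probe sets; threshold 0.05; no block), after the fit was tested on simulated data. No filter on low levels was used. Tested differences are printed for the 12 members with the largest absolute difference and for measured members of a fixed set of smooth muscle, actin and regulator genes. Levels on every array are also given for the 8 members with the widest range. Up to 3 genes with the smallest p were named from the filament, adhesion partner, target, mural and skeletal muscle lists. Genes of the macrophage, cell cycle and stromal lists were not named by that rule. An endothelial list was also looked at and is not described. Other genes were chosen after their values were seen. The members and lists were chosen with earlier results of these data known. No sequences were used here. A regulator gene and a list of pathway genes are not reported here, though counts over the 32 genes include that gene.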

Additional observations from a re-analysis of the deposited data

How the results depend on the processing

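Across the centred, re-normalised, filtered (mean level of at least 5), trend and robust, array-weighted, replicate-block and averaged-probe-set settings and all omissions, 0 of the 32 genes passed in limma. Single omissions gave 0 to 2 calls among all probe sets (1 without tibial 1 and 2 without tibial 3) and medians from -0.03 to 0.07. Members without overlap numbered 9 without mandibular 1 (beside 17.4% of all probe sets), 5 without mandibular 2 (beside 17%) and 3 in each other omission (beside 12.7% to 21.7%). Without mandibular 2 and tibial 3 there were 195 calls and 15 members without overlap. In that fit ACTA2 was -0.19, TPM1 -0.01 and MKL1 -0.40. ACTB turned to 0.01 with centred arrays. In single omissions these differences changed sign: ACTA2 from -0.09 to 0.16, ACTB from -0.05 to 0.02, TAGLN from -0.21 to 0.04, TPM2 from -0.38 to 0.09, TPM3 from -0.02 to 0.29, SRF from -0.01 to 0.10 and MKL1 from -0.23 to 0.20. For the other 9 of 17 tested members no setting changed the sign. The cause of these changes was not tested. Deviations of same-numbered samples from their site means had correlations of -0.03, 0.21 and 0.47 over all probe sets (numbers 1, 2 and 3). Those means include mandibular 2 and tibial 3, whose positional genes went against their labels. The correlations thus cannot decide whether same-numbered samples share a pig. Numbers were not taken as pairs, because no label names the pig of a sample. The fit with the replicate block gave 0 calls, 1511 probe sets at an unadjusted p under 0.05 against 836 without it, and 1 member, as without it.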

Other observations

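Actin genes of striated muscle, outside the 32 genes, also varied between arrays. ACTA1, the skeletal alpha actin, measured 5.48, 8.20 and 6.0 on mandibular arrays 1, 2 and 3, against 6.91, 5.85 and 5.76 on tibial arrays 1, 2 and 3, and it was highest on mandibular 2 and tibial 1, like VCL and MKL1. ACTC1, the cardiac alpha actin, chosen after its values were seen, measured 7.95, 8.39 and 7.99, against 8.17, 8.28 and 7.77, and mandibular 2, tibial 2 and tibial 1 were its highest arrays. The muscle genes MYLPF and TNNC2, also chosen after their values were seen, were among their lowest on mandibular 2, at 4.97 and 5.12. Whether probe signal is shared between these actins was not tested.

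ANKRD1, a target of the YAP coactivator also induced in stretched muscle, was the most variable of the 9 measured target genes outside the 32, and it too was chosen after its values were seen. It measured 2.78, 7.80 and 3.71 in mandibular cultures, against 3.16, 5.25 and 3.79 in tibial cultures. The level on mandibular 2, the array on which 18 of the 32 genes were highest, stood far above the rest, and tibial 2 was next. SVIL, which encodes supervillin, a link between actin and membranes, measured 6.10, 6.63 and 5.60, against 7.08, 6.94 and 5.88, so that mandibular 2, tibial 1 and tibial 2 were its highest arrays.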
